A study of Mus musculus with 12 samples.

Results

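Epithelium from mice given only dextran sulfate sodium (DSS) was compared with epithelium from mice given only azoxymethane (AOM), over 3 DSS arrays and 3 AOM arrays out of 12 arrays in 4 groups. All mice were female BALB/c, entered the study at 5 to 7 weeks of age, carried no stated transgene or deletion, and gave distal colorectal tissue on day 100. AOM mice were injected with 10 mg/kg AOM into the peritoneum weekly, 6 times from day 1. DSS mice drank DSS for 5 days of each 21-day cycle, over 3 cycles from day 5, and received no AOM. Control mice received neither agent. The AOM/DSS group received 12.5 mg/kg AOM once, on day 1, and the same 3 DSS cycles. Its arrays hold clipped neoplasms stored in an RNA solution, while the tissue of the other groups was a scraping kept in Trizol. Control and AOM/DSS arrays enter the fit only for its estimate of spread and are given below for reference. The labels leave unsaid if replicate arrays stand for different mice, so the p-values rest on spread between arrays that may be technical.

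AOM is an alkylating carcinogen that leaves mutations in colonic crypts, and repeated doses lead to crypt foci and tumours in which Wnt signalling is active. DSS breaks the mucosal barrier and causes colitis, after which the epithelium is rebuilt. Wnt ligands bind Frizzled receptors and stabilise beta-catenin, which acts with TCF/LEF factors at the crypt base to keep stem cells dividing and also switches on Wnt inhibitors as feedback. As cells leave the crypt they stop dividing and turn on transporters, carbonic anhydrases and detoxifying enzymes of the absorptive colonocyte. The comparison sets epithelium after cyclic injury beside epithelium after the carcinogen.

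Levels below are log2 intensity relative to the array's 75th percentile, so 0 is a signal at that percentile and 1 unit is a doubling. A level is compared between arrays for 1 gene, never between genes. A gene entered the test if its probe stood well above background on each of the 3 AOM or each of the 3 DSS arrays, as it did for 16232 genes (12730 with a symbol); 1031 passed on the AOM arrays alone and 355 on the DSS arrays alone. The 75th percentile of intensity was 454 to 694 on the AOM arrays and 434 to 670 on the DSS arrays, with 54.3 to 58.9% and 52.1 to 59.3% of probes well above background, and no spot was saturated. All 11 epithelial markers, including the adhesion molecule Epcam (4.68 to 5.21 in AOM, 5.03 to 5.62 in DSS), were well above background on all 6 arrays. AOM replicate 1 correlated best with DSS replicate 2 (Pearson's r = 0.97 across genes, which are not independent replicates), while AOM replicates 2 and 3 correlated best with each other (0.98). DSS replicate 1 correlated best with control replicate 3 (0.97). The median SD of a gene was 0.28 log2 units over the AOM arrays, 0.15 without AOM replicate 1, and 0.38 over the DSS arrays. All DSS arrays share a slide with AOM replicate 3, and AOM replicates 1 and 2 lie on another.

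2 genes passed the test, Bex4 and Wnt3, and both fell in DSS relative to AOM (limma, Benjamini-Hochberg adjusted p under 0.05, n = 3 arrays a group). That is 0.0123% of genes in either direction, and 0.0123% for genes lower in DSS. Bex4 and Wnt3 had both entered through the AOM arrays alone, which favours a lower DSS value by construction. At an unadjusted p under 0.05 there were 1036 genes higher in DSS (6.38%) and 1595 lower (9.83%). The 3 DSS arrays lay above all 3 AOM arrays for 1353 genes (8.34%) and below them for 1941 (12%). The median difference, DSS minus AOM, was 0.0042 log2 units over all genes tested. With slide as a fixed block, which rests the comparison on AOM replicate 3, limma called 0 genes (1452 at an unadjusted p under 0.05). Within that shared slide AOM replicate 3 is the only AOM array, so only differences are given for it below. Without AOM replicate 1 limma called 248 genes, and 0 on leaving out any other AOM or DSS array (1513 to 3582 at an unadjusted p under 0.05).

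Bex4, a brain-expressed X-linked protein that binds tubulin, was at -1.46, -0.59 and 0.11 on AOM replicates 1, 2 and 3. On the DSS arrays it was at -4.96, -6.26 and -6.03, well above background on none of them. The groups were far apart: the highest DSS array lay below the lowest AOM array. Its fitted difference was -5.10 ± 0.56 log2 units (SE, 95% confidence interval -6.33 to -3.87, limma adjusted p = 0.029), which is at least a 10.8-fold difference with the intensities as deposited. For this bound each DSS array takes the lowest signal of any probe well above background, or that of the gene where higher, without the error of the means. Control arrays were at -1.57, -1.18 and -1.30, and AOM/DSS arrays at -2.53, -0.45 and -0.81, so Bex4 was well above background on all 9 arrays outside the DSS group. With the slide block the difference was -5.86 (limma adjusted p = 0.26), and within the shared slide, where AOM replicate 3 is the only AOM array, -5.86. A normexp background correction with an offset of 50 gave -1.58 for Bex4, a size below that bound. The offset is added to every intensity, so by construction it draws differences of dim genes towards no difference, here and below.

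The other measured family members did not pass. Bex1 was at -1.44, 0.88 and 1.66 in AOM and -3.44, -2.93 and -2.64 in DSS, which do not overlap (difference -3.37 ± 0.62, limma adjusted p = 0.076). Its control values, -1.65, -1.64 and -1.21, lay above all DSS arrays, as with Bex4. Bex3 was at 2.86 to 3.20 in AOM and 1.55 to 2.44 in DSS (-1.08 ± 0.28, adjusted p = 0.15), while its control values, 1.18 to 1.86, were close to those of DSS. Bex2 overlapped between groups (-0.70 ± 0.32, adjusted p = 0.31). Family members are similar in sequence, and cross-hybridisation of these probes was not tested.

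Wnt3, a ligand that Paneth cells of the small intestine supply to crypt stem cells, was at -3.10, -2.76 and -3.47 in AOM. It was at -5.66, -6.27 and -5.53 in DSS, well above background on no DSS array. The fitted difference was -2.71 ± 0.32 log2 units (95% confidence interval -3.40 to -2.01, limma adjusted p = 0.029), at least 1.97-fold. Here the control arrays (-4.79, -5.48 and -5.39) were near DSS, and the AOM/DSS neoplasms (-1.54, -0.61 and -1.24) were above AOM. A second Wnt3 probe was well above background on no AOM or DSS array and gave -0.55. The difference was -2.35 with the slide block (limma adjusted p = 0.32) and within the shared slide, where AOM replicate 3 is the only AOM array. It was 0.15 with a normexp background correction, under which neither Wnt3 (adjusted p = 0.92) nor Bex4 (adjusted p = 0.26) passed.

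**Figure D1:**
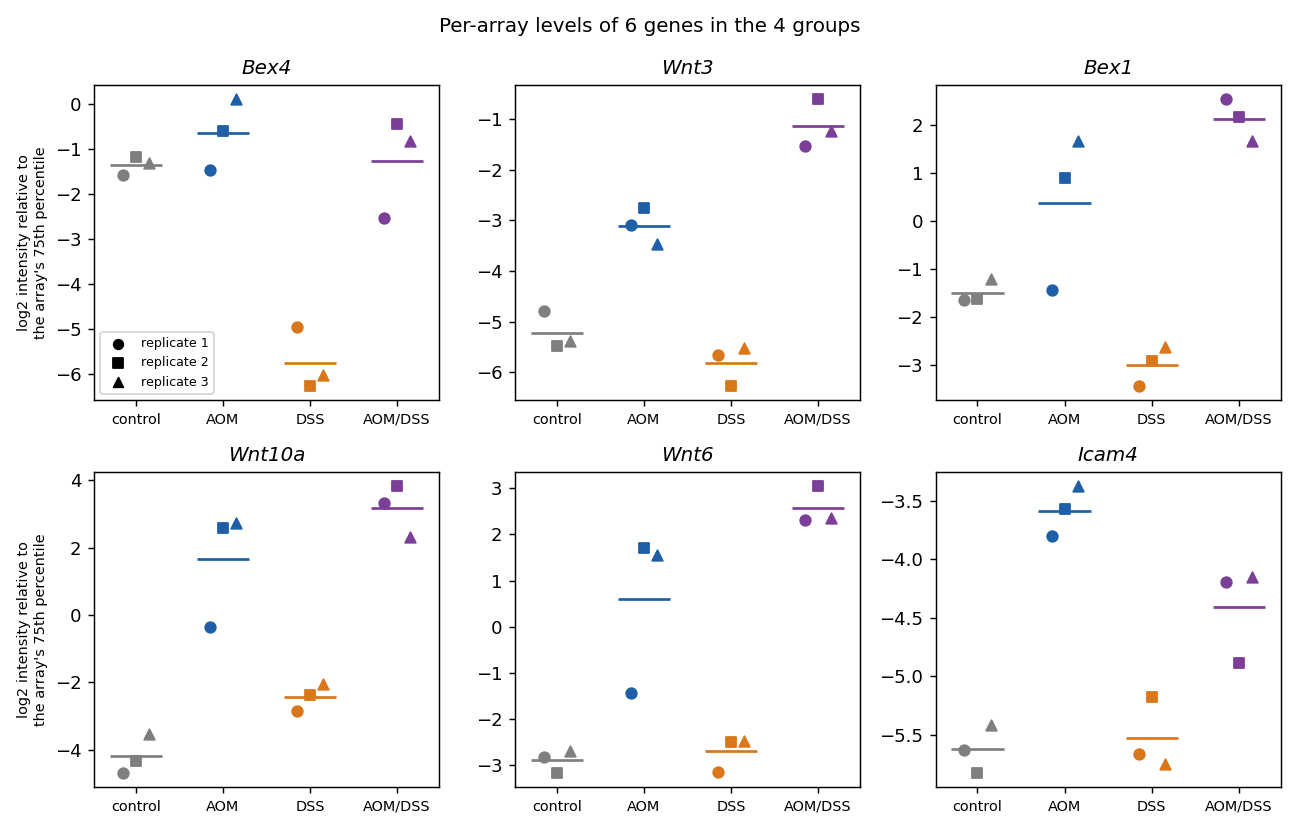
Log2 intensity relative to the array's 75th percentile (vertical axes, scaled per gene) of 6 genes on each array of the 4 groups, with marker shape giving the replicate and the bar the group mean. Bex4 is lower on the 3 DSS arrays (-6.26 to -4.96) than on the other 9 arrays (-2.53 to 0.11), whereas for Wnt3 and Wnt6 the DSS arrays sit near control, with the AOM and AOM/DSS arrays above.

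Promoter sequence is shown for Wnt-linked genes because Wnt3 is one of the called genes and Sp5 a known target of the pathway. RefSeq promoters (GRCm38.p6, 250 bases before to 50 after the start) were matched for 12 of 18 such genes named below, all but Wnt10a, Notum, Znrf3, Myc, Lgr5 and Smoc2. The TCF/LEF motifs CTTTGAT and CTTTGTT were searched on both strands. Either motif was found in 2 of the 12, Wnt3 and Sp5, against 9.28% of 27025 promoters of that length. CTTTGAT alone was in 3.72% of promoters and CTTTGTT in 5.79%. In Sp5, a zinc-finger factor switched on by Wnt signalling, capitals mark CTTTGAT with its first base 104 bases upstream of the start and CTTTGTT, read on the other strand, 222 bases upstream. In Wnt3 the capitals mark CTTTGTT 18 bases after the start. The first stretch is chr2:70474673-70474922 and the next chr11:103774183-103774209, both on the plus strand.
Sp5: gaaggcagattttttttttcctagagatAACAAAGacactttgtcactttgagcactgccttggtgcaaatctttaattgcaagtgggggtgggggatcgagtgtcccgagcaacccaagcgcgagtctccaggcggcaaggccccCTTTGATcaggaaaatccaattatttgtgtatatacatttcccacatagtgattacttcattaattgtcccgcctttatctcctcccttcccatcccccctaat
Wnt3: ctcaagtggaCTTTGTTccaactattg
The clock E-box CACGTG was in the Wif1 promoter and 7.24% of all promoters, and neither it nor the D-box TTATGTAA (0.955% of promoters) was in those of the clock genes Dbp and Arntl. A match is a description of letters in this window and was not set against binding.

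Wnt ligands beside Wnt3 also had DSS arrays below all AOM arrays, without passing the test. Wnt10a, which acts through beta-catenin, was at -0.35, 2.58 and 2.74 in AOM and -2.85, -2.36 and -2.04 in DSS (difference -4.08 ± 0.72, limma adjusted p = 0.076). Wnt6 was at -1.43, 1.71 and 1.55 in AOM and -3.15, -2.49 and -2.46 in DSS (-3.31 ± 0.67, adjusted p = 0.096). AOM replicate 1 stood between the other AOM arrays and DSS for both. Of 11 ligands listed, 7 were measured, 2 of them through the AOM arrays alone: 1 fell (against 0.0123% of all genes), 0 rose, 3 lay wholly below AOM (against 12%) and 1 wholly above (against 8.34%). Rspo1, an R-spondin that strengthens Wnt signals, was the one above, with a difference of 1.88 (limma adjusted p = 0.17). Rspo1 had entered through the DSS arrays alone, which favours a higher DSS value by construction.

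Of 10 Wnt inhibitors measured out of 16, 3 lay wholly below AOM and 7 overlapped, against 12% of all genes wholly below. Notum, an enzyme that strips the lipid from Wnt proteins, was at -3.45, 1.49 and 1.13 in AOM and -6.37, -6.27 and -5.93 in DSS, where no array was well above background (difference -5.91 ± 1.00, limma adjusted p = 0.076, at least 14-fold, and -2.24 with normexp). Nkd1, which binds Dishevelled, was at -0.37, 4.12 and 4.18 in AOM and -1.85, -1.45 and -2.84 in DSS (-4.69 ± 1.09, adjusted p = 0.13). Wif1, which binds Wnt ligands outside the cell, was at 0.16, 4.72 and 4.62 in AOM and -1.04, -0.71 and -1.33 in DSS (-4.19 ± 0.95, adjusted p = 0.12). In none of the 3 did the groups overlap, but AOM replicate 1 lay nearer to the DSS mean than to the other AOM arrays in each.

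Axin2, a scaffold of the beta-catenin destruction complex, overlapped between the groups. It was at -2.49, -0.03 and 0.68 in AOM against -2.30, -2.18 and -2.21 in DSS (-1.62 ± 0.67, limma adjusted p = 0.27), so AOM replicate 1 lay below every DSS array. The receptor-removing ligases Rnf43 and Znrf3 differed by -1.41 ± 0.44 and -1.38 ± 0.50, again with overlap. The secreted inhibitors Sfrp1 and Sfrp2 had positive differences with overlap, 0.72 ± 0.45 and 0.42 ± 1.10, and that of Sfrp2 was -0.37 without AOM replicate 1. None of the 10 passed, 6 were lower at an unadjusted p under 0.05 (against 9.83% of all genes), and 3 had entered through the AOM arrays alone, which favours a lower DSS value by construction.

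Targets and crypt stem cell genes were described in the same way. Prss56, a serine protease listed here among Wnt-induced genes, was at -2.60, 2.91 and 2.21 in AOM and -6.27, -6.54 and -6.12 in DSS (difference -7.15 ± 1.29, limma adjusted p = 0.076, at least 30.5-fold, and -3.29 with normexp). Sp5 was at -2.07, 2.17 and 1.77 in AOM and -4.78, -3.09 and -5.04 in DSS (-4.93 ± 0.94, adjusted p = 0.083). Lgr5, the R-spondin receptor that marks crypt base stem cells, was at -2.69, 0.80 and 0.43 in AOM, and -4.93, -3.34 and -6.00 in DSS (-4.27 ± 0.90, adjusted p = 0.11). For these 3 genes every DSS array was below every AOM array, and only 0 or 1 DSS array was well above background.

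Smoc2, a matricellular protein of the stem cell zone, was at -0.41, 1.39 and 1.62 in AOM and -1.59, -1.72 and -1.23 in DSS (-2.38 ± 0.49, limma adjusted p = 0.099). Ascl2, the transcription factor of the Lgr5 cell state, differed by -1.44 ± 0.38 and the RNA-binding protein Mex3a by -2.73 ± 0.70, both without overlap. Control arrays were above all DSS arrays for Smoc2 (-0.23, 0.53 and 0.28) and Lgr5 (-2.21, -0.72 and -1.94). Of 6 stem cell markers measured, none passed, 5 were lower at an unadjusted p under 0.05 (against 9.83% of all genes) and 5 lay wholly below AOM (against 12%), with 2 of the 6, Lgr5 and Mex3a, having entered through the AOM arrays alone. Among further targets, the growth regulator Myc differed by -1.03 ± 0.37, the transcription factor Sox4 by -2.04 ± 0.51 and the receptor Tnfrsf19 by -2.73 ± 0.78, none passing. Sox9, a factor of crypt progenitors, differed by -0.30 (limma adjusted p = 0.76) and overlapped. Of 12 Wnt-induced genes measured, none passed and 6 were lower at an unadjusted p under 0.05, against 9.83% of all genes. The 6 include Prss56, Sp5 and Tnfrsf19, which entered through the AOM arrays alone.

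**Figure D2:**
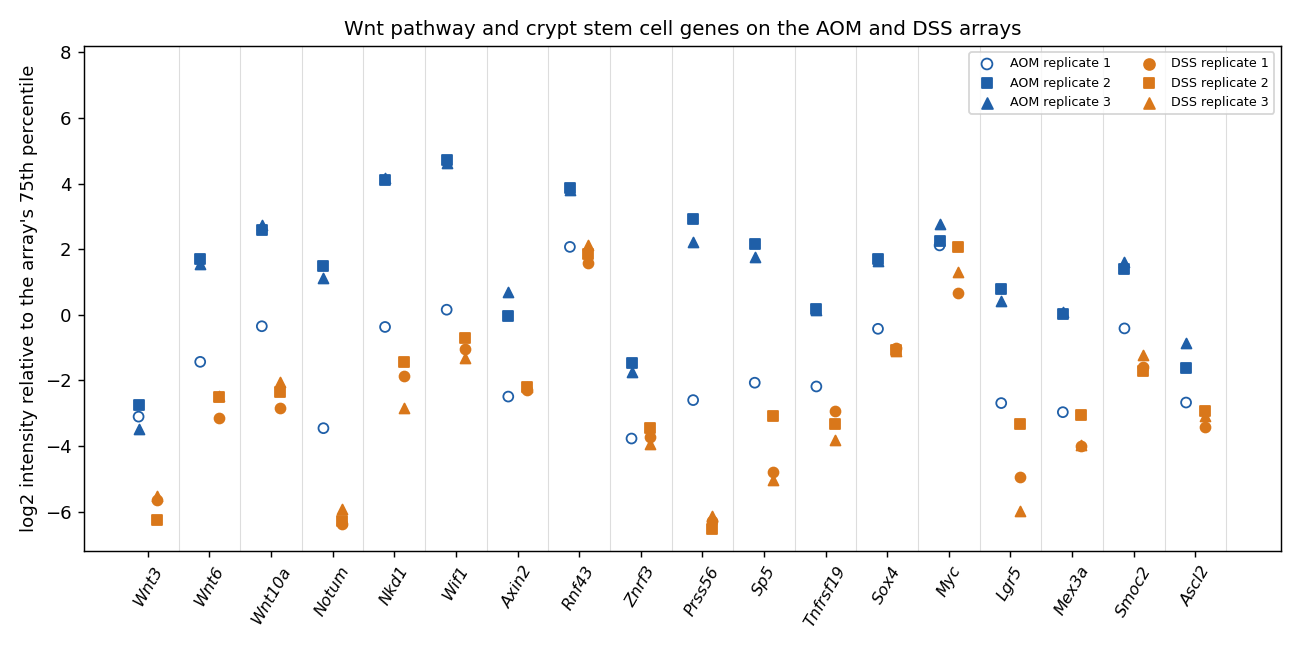
Log2 intensity relative to the array's 75th percentile (vertical axis) of 18 Wnt pathway and crypt stem cell genes on the 3 AOM arrays (blue, replicate 1 as an open circle) and the 3 DSS arrays (orange). AOM replicates 2 and 3 sit together at the top for most genes (not Wnt3 or Myc), and AOM replicate 1 lies between them and DSS for most genes, as for Wif1 (0.16 against 4.72 and 4.62), but below the DSS arrays for Axin2 (-2.49).

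Because AOM replicate 1 decided so many values, the comparison was also fitted without it. The array was singled out for its values, as the AOM array that correlated best with a DSS array. Leaving it out lowered the median SD over the AOM arrays from 0.28 to 0.15, which favours calls by construction. Leaving out any other AOM or DSS array gave no call. Without AOM replicate 1, 221 genes fell (1.36%) and 27 rose (0.166%) in DSS (limma, adjusted p under 0.05, 2 AOM and 3 DSS arrays), among them both Bex4 and Wnt3. Of 52 genes on the Wnt and stem cell list 35 were measured, 10 of them because only the AOM arrays were all above background, which favours a lower DSS value by construction. Of the 35, 16 fell and 0 rose in that fit. The left-out array gives a reading that this fit did not use: it lay beyond all DSS arrays, on the side of the other AOM arrays, for 157 of the 221 genes that fell and 20 of the 27 that rose. It was nearer to the mean of AOM replicates 2 and 3 than to the DSS mean for 40 and 11 of them. The control mean was nearer to DSS for 209 of the 221 and for 24 of the 27. None of these position counts was taken over all genes. They cannot be set against a background share, and no conclusion is drawn from them.

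Further genes that fell in that fit, named for the size of their change, were Sbspon, Kif26b, Spock2, Mt4 and Fam89a. Sbspon, a secreted somatomedin-domain protein, was at -2.39, 1.78 and 1.53 in AOM and -5.90, -4.77 and -6.10 in DSS (-7.25 without AOM replicate 1, limma adjusted p = 2.7e-05). No DSS array was well above background for it, so with all arrays the difference is given as at least 21-fold, and it was -2.66 with normexp. The kinesin Kif26b was at -4.23, -0.58 and -0.41 in AOM and -6.32, -6.25 and -5.79 in DSS, again well above background on no DSS array (at least 5.10-fold, and -0.97 with normexp). Spock2, a matrix proteoglycan, was at -1.16, 2.56 and 2.30 against -3.41, -2.88 and -3.03. The metallothionein Mt4, known from squamous epithelia, was at 0.04, 3.77 and 3.93 against -2.51, -1.59 and -2.36, and Fam89a at -1.04, 1.81 and 1.91 against -3.47, -2.97 and -4.0. With all 6 arrays in the fit the adjusted p of these 5 ran from 0.065 to 0.083. Sbspon, Kif26b and Fam89a had entered through the AOM arrays alone, which favours a lower DSS value by construction.

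Matrilysin (Mmp7), a protease of Paneth cells and adenomas, was at -0.49, 2.90 and 2.47 in AOM and -3.23, -4.60 and -3.08 in DSS (difference -5.27 ± 0.83, limma adjusted p = 0.065, and -6.33 without AOM replicate 1). In control it was at -5.65, -4.60 and -5.97. Of 13 proteases and inhibitors of matrix remodelling, none passed and 4 were lower at an unadjusted p under 0.05 (against 9.83% of all genes). Only Mmp7 lay wholly below AOM (against 12%), and the others overlapped. Mmp7 was among 3 of the 13 that had entered through the AOM arrays alone, which favours a lower DSS value by construction.

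Of 5 hair keratins measured, 2 of them through the AOM arrays alone, none passed, 1 lay wholly below AOM (against 12% of all genes) and 2 were lower at an unadjusted p under 0.05 (against 9.83%). Krt35, a hair keratin, was at -2.30, 1.43 and 0.87 in AOM and -6.38, -5.59 and -6.07 in DSS, where no array was well above background (-6.02 ± 0.81, limma adjusted p = 0.054, at least 17-fold, and -2.40 with normexp). Krt15, a keratin of basal cells, was at 1.13, 1.82 and 3.91 against -2.34, -2.67 and -1.03 (-4.30 ± 0.63, adjusted p = 0.060). Krt17, induced in injured and stressed epithelia, was at -0.77, 3.83 and 3.32 against -2.56, -1.86 and -2.18 (-4.33 ± 0.91, adjusted p = 0.10). Krt36 ran from 0.02 to 3.63 in AOM and -2.03 to 0.55 in DSS, which overlap. The simple keratin Krt8 of the gut lining differed by 0.21 ± 0.28. Of 14 markers of squamous epithelium, 5 were measured, and their summed signal was 5.20, 9.63 and 23.3 times the 75th percentile in AOM and 2.97, 4.99 and 7.12 in DSS. Krt15 is among these 5 and makes up most of the sum on AOM replicate 3, so the sum is not a separate reading. It was the only one of the 5 wholly below AOM (against 12% of all genes). The markers Trp63, Krt1 and Krt4 did not pass the background filter, and the part of squamous cells in these keratin values was not tested.

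Among the smallest p-values short of the threshold were genes for which the 3 AOM arrays lay close together. Icam4, an adhesion molecule of red blood cells, was at -3.80, -3.57 and -3.37 in AOM and -5.67, -5.18 and -5.75 in DSS, well above background on no DSS array (-1.95 ± 0.25, limma adjusted p = 0.052, at least 1.42-fold, but 0.47, with the sign turned, under normexp). Icam4 had entered through the AOM arrays alone, which favours a lower DSS value by construction. Sbsn, a secreted protein of keratinocytes, was at -0.81, -1.21 and -1.07 against -2.43, -2.57 and -2.59 (-1.50 ± 0.21, adjusted p = 0.054). Asprv1, a skin protease, was at -0.50, 2.18 and 1.80 against -2.62, -2.12 and -2.17 (-3.46 ± 0.56, adjusted p = 0.065), and here AOM replicate 1 lay apart from the other AOM arrays.

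No gene rose with all arrays in the fit. The smallest p among genes higher in DSS belonged to Ahcyl2, a regulator of bicarbonate transport, at 1.01, 1.10 and 1.15 in AOM and 2.19, 2.42 and 2.46 in DSS (1.27 ± 0.18, limma adjusted p = 0.054). The amino acid transporter Slc6a14 was at 0.79, 1.08 and 0.73 against 2.63, 2.55 and 2.41 (1.66 ± 0.27, adjusted p = 0.065). Xk, a membrane transport protein, was at -2.95, -3.01 and -3.01 against -1.10, -1.98 and -1.22 (1.55 ± 0.24, adjusted p = 0.065), and Srd5a2, a steroid 5-alpha-reductase, differed by 1.37 ± 0.22 (adjusted p = 0.065). In all 4 the AOM arrays lay close together, AOM replicate 1 included, and the control mean was nearer to DSS than to AOM.

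Without AOM replicate 1, 2 of 30 xenobiotic metabolism genes (Sult1b1 and Nr1i3) and 0 of 41 absorptive colonocyte genes rose, against 0.166% of all genes. Nr1i3 had entered through the DSS arrays alone, which favours a higher DSS value by construction. Mep1b, which is on neither list and is a brush border protease subunit, was at 0.89, -0.07 and 0.21 in AOM and 2.54, 2.16 and 2.00 in DSS (2.16 without AOM replicate 1, limma adjusted p = 0.018). Sult1b1, a sulfotransferase, was at 4.12, 3.39 and 3.54 against 5.31, 4.67 and 5.17, Ces2c, a carboxylesterase, at 3.41, 2.28 and 2.49 against 3.71, 3.93 and 3.88, and Nr1i3, the xenobiotic sensor CAR, at -3.04, -4.50 and -5.52 against -2.40, -2.99 and -2.36. The chemokine Ccl25, which draws gut-homing lymphocytes, was at 0.34, -0.93 and -0.69 in AOM and 0.89, 1.29 and 0.73 in DSS, above control (-0.30, -0.02 and -0.10) as well. Adtrp, Styk1, Fgfr1op2 and Ckmt2 rose by 1.56 to 2.04 log2 units in that fit.

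Some rises in that fit went with AOM replicates 2 and 3 standing below the other arrays. Nkain1, which interacts with the sodium pump, was at -7.00 and -6.45 there, -2.71 on AOM replicate 1, -3.85 to -1.27 in DSS, -2.71 to -2.58 in control and -3.42 to -2.80 in AOM/DSS. The left-out array was above all DSS arrays for 2310001H17Rik (0.36) and within the DSS range for Ckmt2 (-0.88) and Ddx25 (-0.97). Nkain1, well above background on 1 AOM array, had entered through the DSS arrays alone, which favours a higher DSS value by construction.

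Absorptive colonocyte genes were higher in DSS as a group but none passed. Of 41 measured, 37 differences were positive, and 21 did not overlap in the higher direction against 8.34% of all genes. At an unadjusted p under 0.05, 13 were higher (against 6.38%) and 0 lower (against 9.83%). Their median difference was 0.79 log2 units, 0.93 without AOM replicate 1, 0.86 without DSS replicate 1 and 0.95 with the slide block. Sult1a1, a sulfotransferase, was at 2.00, 1.98 and 1.72 in AOM and 4.07, 3.67 and 3.93 in DSS (1.99 ± 0.39, limma adjusted p = 0.089). Slc5a8, which takes up butyrate with sodium, was at 0.92, 0.64 and 0.94 against 2.73, 1.84 and 2.52 (1.53 ± 0.33, adjusted p = 0.11). Its control values, 4.02, 4.06 and 3.84, were above those of DSS.

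The membrane carbonic anhydrase Car4 was at 3.41, 2.68 and 2.79 in AOM and 4.02, 4.95 and 4.89 in DSS, and the chloride exchanger Slc26a3 at 2.21, 1.70 and 2.07 against 3.65, 2.70 and 3.05. Neither pair overlapped, yet the errors were wide (1.66 ± 0.82 and 1.14 ± 0.92). The water channel Aqp8 overlapped, at 7.37, 5.93 and 5.79 against 6.79, 7.53 and 7.18. Of 30 xenobiotic metabolism genes measured, none passed, 6 were higher at an unadjusted p under 0.05 (against 6.38% of all genes) and 8 lay wholly above AOM (against 8.34%), with a median of 0.28. The efflux pump Abcg2 was at 2.61, 2.24 and 1.99 in AOM and 3.53, 3.26 and 3.24 in DSS (1.06 ± 0.27, adjusted p = 0.15).

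Proliferation genes lay lower in DSS. Of 25 cell cycle genes measured, 24 differences were negative and none passed. At an unadjusted p under 0.05, 20 were lower (against 9.83% of all genes), and 19 lay wholly below AOM (against 12%). The median difference was -1.12 log2 units, -1.21 without AOM replicate 1, -0.86 without DSS replicate 1 and -1.18 with the slide block. The mitotic kinase Cdk1 was at 0.07, 0.80 and 0.57 in AOM and -1.73, -0.14 and -1.18 in DSS (-1.50 ± 0.42, limma adjusted p = 0.16). The helicase subunit Mcm7 was at 3.66, 3.72 and 3.71 against 2.22, 3.06 and 2.61 (-1.07 ± 0.27, adjusted p = 0.15). Mki67, the antigen Ki-67, overlapped, at 1.91, 2.53 and 2.62 against 2.38, 1.94 and 1.96. Control levels of Cdk1, -2.52, -1.95 and -1.36, were below AOM.

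Ribosome biogenesis genes followed, with 18 of 19 differences negative, none passing, 9 lower at an unadjusted p under 0.05 (against 9.83% of all genes) and 10 wholly below AOM (against 12%), with a median of -0.67. Mybbp1a, a nucleolar protein, differed by -0.90 ± 0.24 and the processome component Rrp9 by -1.06 ± 0.31. Among 15 genes of alkylation damage and mismatch repair, 14 differences were negative, none passed, 7 were lower at an unadjusted p under 0.05 (against 9.83%) and 7 lay wholly below AOM (against 12%), with a median of -0.58. Apex1, the abasic-site endonuclease, was at 2.20, 3.01 and 2.84 in AOM and 0.72, 1.70 and 1.18 in DSS (-1.48 ± 0.33, limma adjusted p = 0.12). Fen1, the flap endonuclease shared with replication, was at 1.17, 1.27 and 1.13 against -0.42, 0.84 and -0.33. The p53 target Cdkn1a overlapped, at 4.30 to 4.44 against 3.75 to 4.51. Of 16 p53 targets measured none passed, with 3 lower (against 9.83%) and 1 higher (against 6.38%) at an unadjusted p under 0.05.

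**Figure D3:**
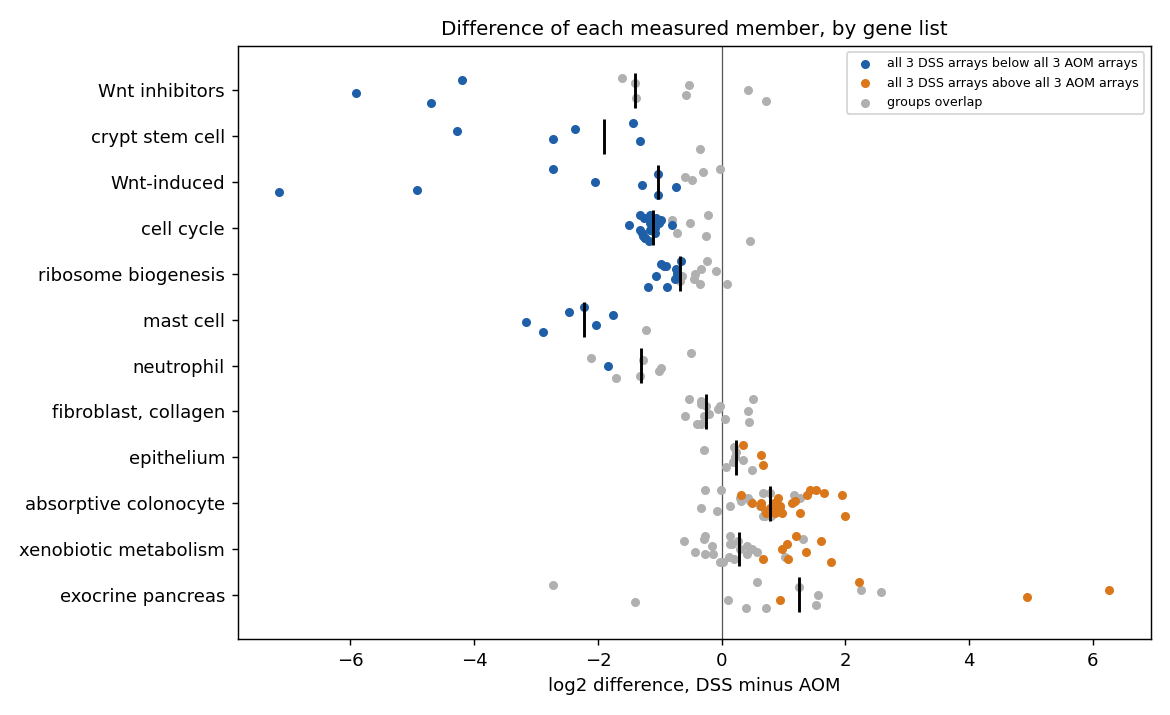
Log2 difference, DSS minus AOM, of each measured member of 12 gene lists (horizontal axis); blue and orange points are genes whose 3 DSS arrays lie wholly below or above the 3 AOM arrays, grey points overlap, and black bars are list medians. Cell cycle genes cluster near -1.12, mast cell markers near -2.22 and absorptive colonocyte genes near 0.79, while fibroblast markers (median -0.25) and epithelial markers (0.24) lie near 0.

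Of 16 antimicrobial genes measured, none passed, 10 differences were positive, 5 lay wholly above AOM (against 8.34% of all genes) and 2 wholly below (against 12%). Pigr, the receptor that carries IgA into the lumen, was at 4.98, 4.06 and 4.27 in AOM and 5.99, 5.00 and 6.08 in DSS (1.25 ± 0.34, limma adjusted p = 0.16). The acute phase protein Saa3 was at 5.62, 4.77 and 4.98 against 5.93, 6.02 and 5.97 (0.85 ± 0.43). Both lay higher on every DSS array than on any AOM array. Lcn2, a siderophore-binding protein, was at -3.08, 1.71 and 1.56 in AOM and -3.74, -2.40 and -3.79 in DSS, which overlap (-3.37 ± 1.13, limma adjusted p = 0.21, and -4.95 with adjusted p = 0.0088 without AOM replicate 1). Lcn2 had entered through the AOM arrays alone, which favours a lower DSS value by construction. Reg3g, an antibacterial lectin, was at 2.48, 5.92 and 3.87 against 0.15, 3.59 and 1.78, which overlap. Among 19 chemokines 4 were higher and 2 lower at an unadjusted p under 0.05, and among 8 cytokines 1 and 1. The shares of all genes were 6.38% higher and 9.83% lower. Through the AOM arrays alone 3 of the chemokines and 2 of the cytokines had entered, which favours a lower DSS value by construction. Il18, a cytokine of the epithelium, was at 1.98, 2.19 and 1.81 in AOM and 3.55, 2.82 and 3.04 in DSS (1.15 ± 0.25, adjusted p = 0.11), and Il33, an alarmin of barrier cells, differed by -2.82 ± 0.85 without overlap (adjusted p = 0.17). Il1b overlapped, at -1.40, 0.17 and 0.77 against -1.13, 0.26 and -2.13.

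Goblet and enteroendocrine genes mostly overlapped. The mucin Muc2 (5.81 to 6.62 in AOM, 5.63 to 7.16 in DSS), the resistin-like protein Retnlb (6.66 to 7.69 and 5.60 to 7.86), the L-cell hormones Gcg (1.42 to 2.11 and 1.82 to 2.95) and Pyy (6.04 to 7.06 and 6.65 to 7.20) and the granin Chga (3.18 to 3.92 and 3.25 to 3.81) all overlapped. Of 31 goblet cell genes measured none passed, with 2 higher and 2 lower at an unadjusted p under 0.05. Of 18 enteroendocrine genes none passed, with 1 higher and 2 lower. The shares of all genes were 6.38% higher and 9.83% lower. Of 9 tuft cell genes measured none passed, with 2 wholly above AOM (against 8.34% of all genes) and 3 wholly below (against 12%). The taste channel Trpm5 was at -3.32, -3.87 and -4.86 in AOM and -3.29, -2.95 and -2.26 in DSS, and the lectin Siglecf at -3.28, -4.32 and -4.08 against -3.10, -2.54 and -2.89. Avil, an actin-bundling protein well above background on 2 DSS arrays, was at -3.04, -0.59 and -0.81 in AOM and -4.31, -3.52 and -3.29 in DSS (-2.23 ± 0.54, limma adjusted p = 0.13). Trpm5 had entered through the DSS arrays alone and Avil through the AOM arrays alone, which favours the direction of each by construction. Of 13 posterior Hox genes none passed and none reached an unadjusted p under 0.05, Hoxd13 overlapping at 2.11 to 3.16 and 1.40 to 2.91. Of 13 clock genes none passed, with 1 higher (against 6.38%) and 1 lower (against 9.83%) at an unadjusted p under 0.05. Dbp, a clock output factor, was at 3.02, 4.15 and 4.36 in AOM, 1.96, 3.20 and 2.90 in DSS and 5.17 to 5.81 in control, and the hour of collection was not given in the sources used here.

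Mast cell markers were lower in DSS, and fewer cells of a type cannot be told apart from less RNA per cell. Cma1, a mast cell chymase, was at 2.92, 2.93 and 3.16 in AOM and 0.59, 0.64 and 1.13 in DSS, with control at 0.76, 0.73 and 1.47 (-2.22 ± 0.37, limma adjusted p = 0.076). Mcpt1, the chymase of mucosal mast cells, was at 5.06, 4.56 and 5.22 against 2.15, 2.68 and 1.38 (-2.88 ± 0.63, adjusted p = 0.12), and Mcpt2 at 1.92, 1.47 and 2.67 against -0.71, -0.41 and -2.33. All 7 measured of 10 markers had negative differences, none passed, 6 were lower at an unadjusted p under 0.05 (against 9.83% of all genes) and 6 lay wholly below AOM (against 12%). Their summed signal was 78.6, 58.2 and 90.7 times the 75th percentile in AOM, 13.4, 17.4 and 8.47 in DSS, and 12.9 to 26.1 in control. The median was -2.22, and -2.39 without AOM replicate 1.

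Neutrophil markers overlapped for the most part, with a summed signal of 9.12, 18.7 and 21.3 in AOM and 3.98, 22.1 and 2.16 in DSS. The receptor Trem1 was the 1 marker of 8 measured wholly below AOM, a share near the 12% of all genes. It was at -3.27, -2.43 and -2.57 against -4.63, -3.85 and -5.28 (-1.83 ± 0.33, limma adjusted p = 0.076), well above background on 1 DSS array, and its difference was -0.027 with normexp. The calprotectin subunit S100a8 overlapped, at 0.47, 2.50 and 2.32 against -0.91, 1.72 and -1.89. Of the 8, none passed and 3 were lower at an unadjusted p under 0.05 (against 9.83% of all genes), and 4 had entered through the AOM arrays alone. Fibroblast and collagen markers summed to 157 to 219 in AOM and 137 to 226 in DSS, and endothelial markers to 11.3 to 17.4 and 9.31 to 18.2, so these stromal sums overlapped between the groups.

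Lymphocyte and pancreatic genes varied widely between arrays of a group. B and plasma cell markers summed to 279, 145 and 94.5 on AOM replicates 1, 2 and 3 and 173 to 302 in DSS, and Ms4a1 (CD20) was at 3.84, 1.56 and -0.89 in AOM and 2.81 to 3.45 in DSS. T and NK cell markers summed to 36.5 on AOM replicate 1 and 5.80 to 15.6 on the other 5 arrays. Among the AOM and DSS arrays, exocrine pancreas genes peaked on DSS replicate 1. The elastase Cela3b was at 5.01 there, -3.30 and -2.12 on the other DSS arrays, -6.71 to -6.16 in AOM and 3.51, -0.41 and 7.64 in control. Cela3b had entered through the DSS arrays alone, which favours a higher DSS value by construction. Of 15 pancreas genes measured, none passed and 4 lay wholly above AOM (against 8.34% of all genes). The list median was 1.25 log2 units, and 0.35 without DSS replicate 1. The part of these cells in the values of other genes was not tested, and Bex4 and Wnt3 differed by -5.49 and -2.79 without DSS replicate 1 (limma adjusted p = 0.076 and 0.17).

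**Figure D4:**
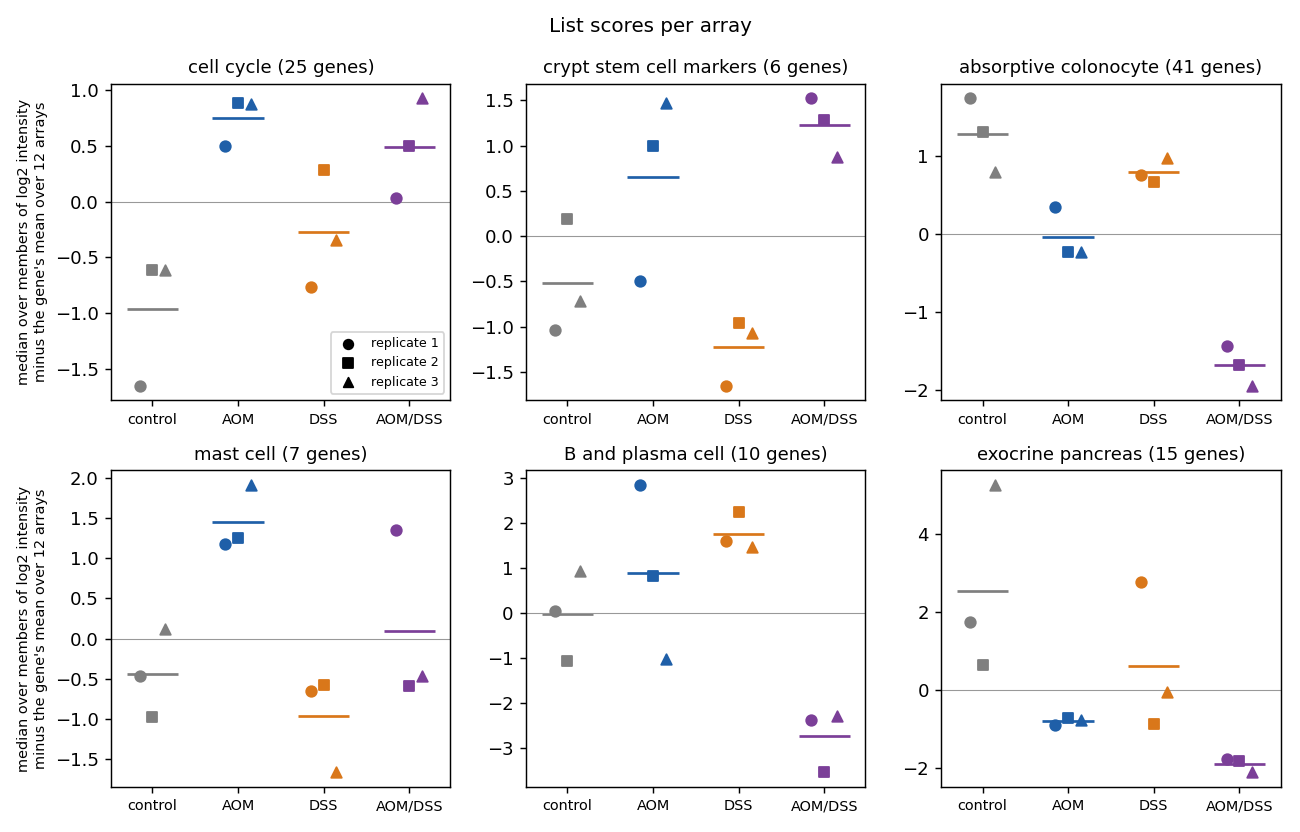
Score of 6 gene lists on each array of the 4 groups: the median over members of log2 intensity minus the gene's mean over the 12 arrays, with marker shape giving the replicate and the bar the group mean. Mast cell scores are 1.18 to 1.92 in AOM and -1.67 to -0.58 in DSS, and crypt stem cell scores on AOM replicate 1 (-0.50) lie below the other AOM arrays. The exocrine pancreas score is highest on control replicate 3 (5.27), DSS replicate 1 (2.77) and control replicate 1 (1.74).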

How the data were processed

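RNA was purified with a miRNeasy kit and labelled with Cy3 for one-colour Agilent arrays, per the labels' protocols. The deposited scanner files hold processed intensity, which per the file headers came from version 10.7.3.1 of Feature Extraction (10.7 per the submitters' processing notes), not scaled between arrays. The deposited series matrix holds the authors' log2 values, with equal quantiles on all arrays. From 41174 probes (27198 named through RefSeq accessions), log2 intensity minus the array's 75th percentile was taken. Outlier spots were left out, spots of a probe averaged, and a gene given by its brightest kept probe. limma 3.58.1 (R 4.3.3) fitted 4 group means over 12 arrays, with Benjamini-Hochberg adjustment over all genes, and was tested on simulated data. Named genes are called genes, up to 2 genes of smallest p per list without calls, and a panel (its member Mgmt was not analysed here). Genes called without AOM replicate 1, the next smallest p-values, Bex genes and further list members were chosen after their values were seen. All members and lists were chosen with earlier results of these data known. Results were recomputed under 22 other settings, and 1 more chosen after seeing the data. Only 3 arrays a group limit the precision.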

Additional observations from a re-analysis of the deposited data

How the results depend on the processing

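Bex4 and Wnt3 kept their call under median scaling (5 genes called, all 5 lower), quantile normalization and the authors' deposited log2 values (3 called in each, 1 higher), the mean or median of a gene's probes (5 called, 5 lower), named genes alone (5 called, 1 higher and 4 lower), a variance trend (5 called, 1 higher and 4 lower), array weights (1350 called, 511 higher and 839 lower) and slide as a random block (90 called, 27 higher and 63 lower). Within the shared slide 56 genes were called (3 higher, 53 lower), Bex4 but not Wnt3 among them. The 6 DSS and AOM arrays alone gave 1 call, lower in DSS, for neither gene. limma called 0 genes with normexp and its offset of 50 (2478 at an unadjusted p under 0.05), no filter (3436, with 32168 genes tested), a filter on all 6 arrays that removes both genes (2368) and slide as a fixed block (1452). It also called 0 with normexp fitted without spots of high local background, an alternative chosen after seeing the data (2657). Leaving out 1 array gave 0 to 248 calls, 0 to 27 higher and 0 to 221 lower. In these, both genes were called only without AOM replicate 1. The adjusted p over all alternatives was 0.0018 to 0.26 for Bex4 and 0.0036 to 0.92 for Wnt3. The cause was not tested beyond what the filters fix by construction.

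After the group mean of each gene was subtracted, same-numbered DSS and AOM arrays correlated at 0.090, 0.099 and 0.079. The numbers were not taken as pairs, although on these deviations each DSS array correlated best with its own number. With the replicate number as a block limma called 0 genes (2779 at an unadjusted p under 0.05).

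Signs turned with normexp for Wnt3 (0.15), Icam4 (0.47), Chga (-0.22), Epcam (-0.030), Krt8 (-0.16) and Muc2 (-0.086), and with slide as a random block for Chga (-0.021). On leaving out 1 array they also turned: the range was -0.044 to 0.34 for Chga, -0.80 to 0.047 for Sox9, -0.61 to 0.17 for Hoxd13, -0.91 to 0.23 for Retnlb, -0.0021 to 0.40 for Krt8, -0.13 to 0.63 for Muc2 and -0.37 to 1.12 for Sfrp2, which was -0.77 with array weights. None of these 7 had passed the test. Genes dim on all arrays of a group have only a bound there.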
